A study of Homo sapiens with 2 samples.

Results

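Apoptosis genes that encode caspases, the apoptosome scaffold, a caspase substrate and caspase inhibitors were examined in HEL, a human erythroleukemia cell line. The 8 genes were CASP2, CASP6, CASP8, CASP9, APAF1, PARP1, XIAP and BIRC2. They were chosen by symbol, and all 8 were present in the count table of 61806 genes and among the 13924 listed with FPKM. HEL cells, with the genotype given as WT, received L1 at 1 µM or the vehicle DMSO at 0.5% for 24 h, and 1 mRNA library was sequenced per condition. L1 is a derivative of 3,3′-diindolylmethane, and the labels do not give the DMSO content of the L1 culture. The comparison asked how the mRNA of the apoptosis machinery differed after L1, since the study assayed apoptosis in these cells.

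Since each condition had 1 library, the variation among cultures is unknown. No test between conditions was therefore possible and none of the differences has a replicate check. Log2 ratios are L1 over DMSO from counts scaled by edgeR's TMM method. Each has an exact 95% interval (Clopper-Pearson) on the split of the gene's counts between the libraries, which covers counting error only. The DMSO library held 32556872 counts and the L1 library 27135647. All 13 erythroid and megakaryocytic markers looked up were kept, the lowest with DMSO being HBE1 at 216 counts, and their summed counts were 126027 with DMSO and 111372 with L1, a log2 ratio of 0.03 after scaling. Single markers differed more, with 3 at least 2-fold higher, such as HBG1 (1.78), and TFRC at least 2-fold lower (-1.25). Of the 7 T and B cell markers, 4 had no count in either library and the 7 summed to 161 counts with DMSO and 102 with L1, a log2 ratio of -0.45 after scaling, most from CD79A (113 and 60). None of 5 epithelial or 3 liver markers reached 10 counts. What these markers contribute to the differences was not tested. In bulk RNA, fewer cells that express a gene and less RNA per cell cannot be told apart.

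Caspases are cysteine proteases that cut proteins after aspartate and are made as inactive precursors. Initiator caspases are activated on platforms. CASP8 is recruited below death receptors, CASP9 is activated on the APAF1 apoptosome once cytochrome c leaves mitochondria, and CASP2 is activated on the PIDDosome. CASP6 is usually grouped with the executioner caspases. PARP1, a nuclear enzyme that answers DNA damage, is a classical caspase substrate. XIAP binds and inhibits active caspases directly, whereas BIRC2 (cIAP1) is a ubiquitin ligase that acts mainly on death receptor and NF-kB signalling. Caspase activity is set by cleavage, so an mRNA level is not a measure of it.

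The sites that give the caspases and PARP1 their roles are shown first, each from an annotated transcript. The counts were taken per gene and do not show which transcripts held these sites. For the 4 caspases the coding stretch around the catalytic cysteine is given, with the cysteine codon in capitals. For PARP1 the stretch around the caspase cleavage site is given, with the recognition codons in capitals. Each is 45 bases of the coding strand in GENCODE release 29 (GRCh38).
CASP2: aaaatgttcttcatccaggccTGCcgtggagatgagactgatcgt
CASP8: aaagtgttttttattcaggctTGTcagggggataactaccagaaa
CASP9: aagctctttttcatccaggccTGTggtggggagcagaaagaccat
CASP6: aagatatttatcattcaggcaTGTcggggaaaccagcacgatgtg
PARP1: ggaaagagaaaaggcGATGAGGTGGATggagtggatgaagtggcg

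These stretches lie within coding exons. That of CASP8 lies in exon 9 of 10, at chr2:201285070-201285114 on the plus strand. The other 4 stretches each span 2 exons, so their outer coordinates enclose an intron. They run over chr7:143300264-143303797 for CASP2 (plus strand), chr4:109690983-109694542 for CASP6 (minus strand), chr1:15495439-15504641 for CASP9 (minus strand) and chr1:226388713-226390411 for PARP1 (minus strand). CASP2 and CASP9 were the most alike of the 4 caspase stretches, with 32 of 45 bases the same, and CASP2 and CASP8 the least, with 26.

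Levels of the 8 genes spanned 65.4-fold in the DMSO library and 29.3-fold in the L1 library on the deposited FPKM scale, which is per length and allows genes to be compared. With exon lengths from GENCODE release 29 in place of those behind the deposited values, the span was 159-fold and 69.4-fold, most of the difference coming from PARP1, whose length is described after the levels. In DMSO the order was PARP1, BIRC2, CASP8, CASP2, CASP6, APAF1, CASP9 and XIAP. In L1 it was BIRC2, PARP1, CASP8, CASP6, APAF1, CASP2, CASP9 and XIAP. PARP1 stood at 22.9 FPKM in DMSO and 20.0 in L1, and BIRC2 at 17.3 and 20.5. CASP8 stood at 7.87 and 6.32, CASP2 at 5.39 and 3.78, and CASP6 at 4.91 and 5.33. APAF1 stood at 2.49 and 4.42, CASP9 at 1.19 and 1.40, and XIAP at 0.350 and 0.701. The substrate PARP1 and the ligase BIRC2 thus stood well above the 4 caspases in both libraries, and XIAP below all of them. Of the neighbours in this order, the counting intervals (95%, Poisson) of CASP2 (5.11 to 5.69) and CASP6 (4.37 to 5.49) overlapped in DMSO. In L1 those of BIRC2 (19.7 to 21.3) and PARP1 (19.6 to 20.4) overlapped, as did those of CASP8 (5.97 to 6.68) and CASP6 (4.73 to 5.99). APAF1 passed CASP2 between the libraries, from below it in DMSO to above it in L1, where their intervals of 4.14 to 4.71 and 3.53 to 4.05 did not overlap.

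**Figure D1:**
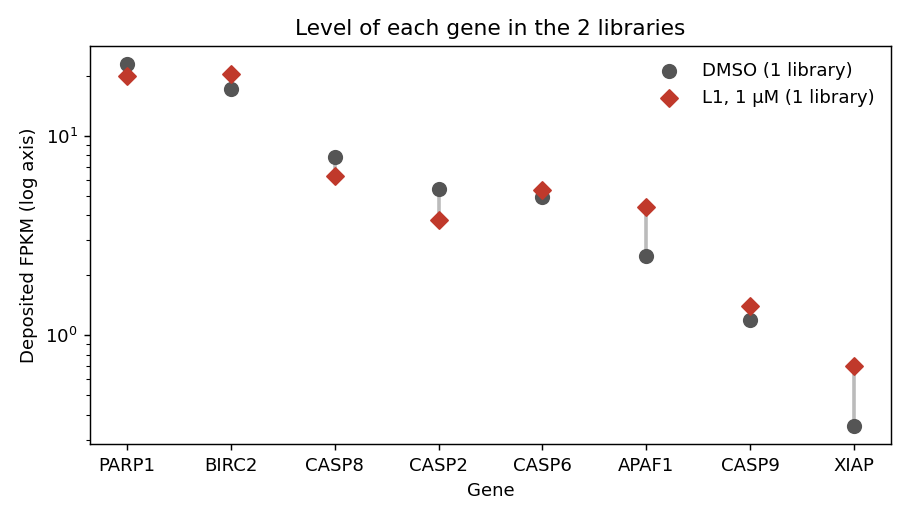
Deposited FPKM (log axis) of each of the 8 genes, ordered by the DMSO value, with circles for the DMSO library and diamonds for the L1 library (1 library each, no replicates). XIAP is lowest in both, at 0.350 and 0.701, and APAF1 moves from 2.49 to 4.42.

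The place of PARP1 depends on the gene length behind its FPKM. From the counts and FPKM, the length used for PARP1 was 18277 bases, 2.55 times the 7169 bases that its exons cover in GENCODE release 29. For the other 7 genes this quotient lay near 1, from 0.975 for APAF1 to 1.05 for XIAP. With the GENCODE length PARP1 had 58.3 FPKM in DMSO and 51.0 in L1, and BIRC2 had 17.1 and 20.3, so PARP1 was the most abundant of the 8 genes in both libraries. The log2 ratios between libraries do not depend on this length.

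Among the genes listed with FPKM, a subset without most genes of few counts, PARP1 lay above 85.7% of genes in DMSO, a place that rests on the length behind its deposited FPKM, and BIRC2 above 80.4%. CASP8 (61.3%), CASP2 (51.0%) and CASP6 (48.7%) lay near the middle. APAF1 lay above 31.4%, CASP9 above 17.0% and XIAP above 3.85% of genes in DMSO, and XIAP above 9.85% in L1.

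The comparison of L1 with DMSO split the 8 genes. APAF1 and XIAP were higher in the L1 library by 1.78-fold and 2.0-fold, and BIRC2 was higher by 1.19-fold. CASP2, CASP8 and PARP1 were lower, at 0.701, 0.803 and 0.874 of the DMSO level. For CASP6 and CASP9 the counting interval included 0. Hence 3 of the 8 genes had an interval above 0, against 26.8% of the 18123 genes that reached 10 counts in either library (the genes kept), and 3 had an interval below 0, against 28.6%.

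For counts past a fixed size, every gene's scaled counts were raised by a prior count of 2. On that scale 2 of the 8 genes, APAF1 and XIAP, were at least 1.5-fold higher, against 13.8% of all genes kept, and none was at least 1.5-fold lower, against 11.4%. None was at least 2-fold higher, against 7.12%, or at least 2-fold lower, against 4.83%. XIAP stood at this threshold, with a log2 ratio of 0.99 with the prior count and 1.00 without it. The median log2 ratio was 0.18 over the 8 genes and -0.004 over all genes kept, and the median size of the difference without its sign was 0.28 and 0.29. All 8 genes had at least 100 counts in a library. Among the 12365 genes that did, the median size was 0.22, 7.38% and 8.22% were past 1.5-fold higher and lower, 3.13% and 2.92% past 2-fold, and 30.5% and 36.7% had an interval above and below 0.

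**Figure D2:**
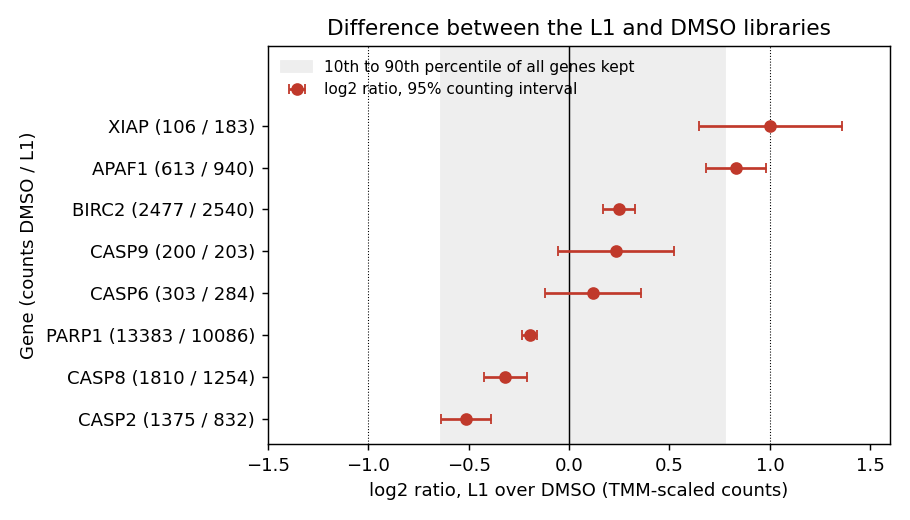
Log2 ratio of L1 over DMSO for each gene (points) with exact 95% counting intervals (bars), the counts in DMSO and L1 beside each symbol, and the middle 80% of all genes kept in grey (-0.64 to 0.78). XIAP (1.00) and APAF1 (0.83) lie right of the grey range, and CASP2 (-0.51) lies lowest, inside it.

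The initiator caspases did not move together. CASP2 (ENSG00000106144, chr7:143288215-143307696 on GRCh38, plus strand) had 1375 counts with DMSO and 832 with L1. Its log2 ratio was -0.51, with an interval from -0.64 to -0.39, and 13.6% of the genes kept had a lower ratio. CASP8, an initiator below death receptors, was lower as well, though by less. CASP8 (ENSG00000064012, chr2:201233443-201287711, plus strand) had 1810 counts with DMSO and 1254 with L1. Its log2 ratio was -0.32, from -0.42 to -0.21. CASP9, the mitochondrial initiator, was the least counted of the 3. CASP9 (ENSG00000132906, chr1:15490832-15526534, minus strand) had 200 counts with DMSO and 203 with L1. Its log2 ratio, 0.23, had a counting interval of -0.05 to 0.52, so a difference was not detectable at this depth. Of the 31-base words in their transcripts, 3.16% of those of CASP2, 5.86% of CASP8 and 3.11% of CASP9 also occur in another gene.

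CASP6 (ENSG00000138794, chr4:109688622-109703583, minus strand) had 303 counts with DMSO and 284 with L1. Its log2 ratio was 0.12, from -0.12 to 0.36. The end of CASP6 overlaps 105 exonic bases of MCUB on the opposite strand, a gene with 1116 counts with DMSO and 729 with L1. Whether the counting used strand is not given in the sources used here, and with the counts of MCUB added the log2 ratio of CASP6 was -0.27. That sum takes all counts of MCUB, which exceed those of CASP6, and not only those of the overlap. It is therefore not an estimate for CASP6 under counting without strand.

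Summed over the 4 caspases, the counts were 3688 with DMSO and 2573 with L1, a log2 ratio of -0.31 (-0.38 to -0.23), which CASP8 and CASP2 dominate. On the FPKM scale the 4 genes summed to 19.4 in DMSO and 16.8 in L1.

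APAF1, the scaffold on which CASP9 is activated, was higher in the L1 library. The gene (ENSG00000120868, chr12:98645141-98735433, plus strand) had 613 counts with DMSO and 940 with L1. Its log2 ratio was 0.83, from 0.68 to 0.98, and 90.7% of the genes kept had a lower ratio. Of its words, 11.7% are shared with another gene, most with ANKS1B, whose exons overlap those of APAF1 over 750 bases on the opposite strand. ANKS1B had only 22 counts with DMSO and 21 with L1. The start of APAF1 faces that of IKBIP, which lies on the opposite strand with 27 bases between the annotated genes. IKBIP, named after its values were seen, had 1045 counts with DMSO and 1009 with L1, a log2 ratio of 0.16 (0.04 to 0.29), below the interval of APAF1. Such a neighbour within 1000 bases was found for 3 of the genes studied. DNAJC16, 278 bases from CASP9, had a log2 ratio of 0.27 (0.04 to 0.50), inside the interval of CASP9. TMEM139-AS1, beside CASP2, had only 4 counts with DMSO and 1 with L1.

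PARP1 (ENSG00000143799, chr1:226360691-226408079, minus strand) was the most deeply counted of the genes, with 13383 counts with DMSO and 10086 with L1. Its log2 ratio was -0.20, from -0.23 to -0.16, the narrowest interval of the 8. Of its words, 5.83% are shared with another gene, most with the pseudogene PARP1P1, which had 0 counts with DMSO and 1 with L1. The study also blotted PARP protein and its cleavage, which these counts do not address.

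The inhibitors of apoptosis were both higher in the L1 library, from very different levels. XIAP (ENSG00000101966, chrX:123859724-123913979, plus strand) had 106 counts with DMSO and 183 with L1. Its log2 ratio, 1.00, had the widest interval of the 8 genes, 0.65 to 1.36, which includes values under 2-fold. Its 3 pseudogenes held 4 counts with DMSO and 1 with L1, and adding them gave a log2 ratio of 0.96. Of its words, 11.8% are shared with another gene. BIRC2 was far more abundant and its difference smaller. BIRC2 (ENSG00000110330, chr11:102347211-102378670, plus strand) had 2477 counts with DMSO and 2540 with L1. Its log2 ratio was 0.25, from 0.17 to 0.33. Only 0.778% of its words are shared, all with its paralog BIRC3.

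Ratios between partner genes were compared next, since the scaling of the libraries cancels in them. The FPKM of APAF1 was 2.08 times that of CASP9 in DMSO and 3.15 times in L1, a log2 difference of 0.60 (exact conditional 95% interval of the counts, 0.27 to 0.92). The ratio of XIAP to CASP9, the initiator that XIAP binds, was 0.293 in DMSO and 0.499 in L1, a log2 difference of 0.77 (0.30 to 1.23). The activator and the inhibitor of CASP9 thus both stood higher relative to it. The ratio of BIRC2 to XIAP was 49.3 in DMSO and 29.3 in L1, a log2 difference of -0.75 (-1.12 to -0.39).

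CASP8 stood lower relative to both genes it was set against. Its ratio to CFLAR, which encodes the CASP8-like regulator c-FLIP, was 7.95 in DMSO and 5.17 in L1, a log2 difference of -0.62 (-0.80 to -0.44). CFLAR itself had 707 counts with DMSO and 753 with L1, a log2 ratio of 0.30 (0.15 to 0.45). Its length in the FPKM, 22329 bases, is long for a gene of this coding size. The level of this ratio rests on that length while the difference does not. In GENCODE release 29 the exons of CFLAR cover 22529 bases. With GENCODE lengths for both genes the ratio was 7.96 in DMSO and 5.18 in L1. The ratio of CASP8 to CASP9 was 6.59 in DMSO and 4.50 in L1, a log2 difference of -0.55 (-0.86 to -0.24).

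**Figure D3:**
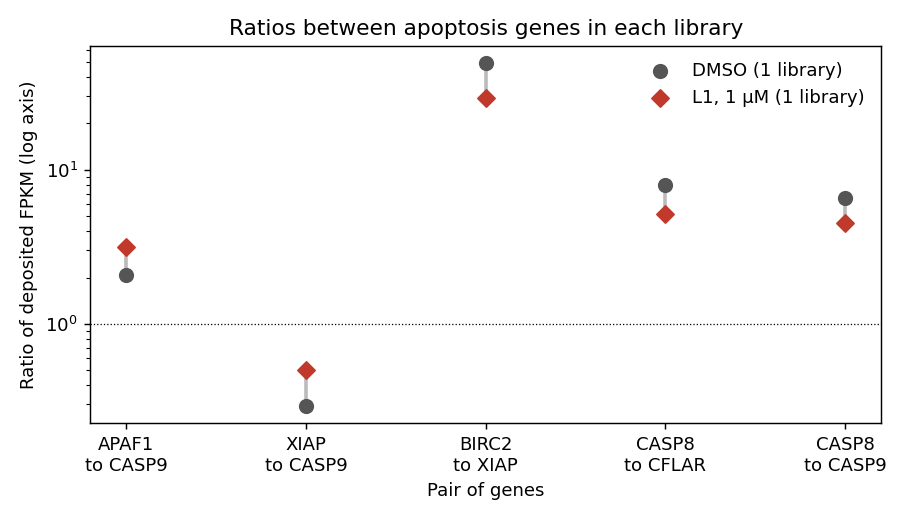
Ratio of deposited FPKM (log axis) for 5 pairs of genes in the DMSO library (circles) and the L1 library (diamonds), with the dotted line at equal levels. APAF1 to CASP9 and XIAP to CASP9 are higher in L1 (3.15 and 0.499), and the other 3 pairs are lower.

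The wider pathway went both ways. Of 12 caspase genes, 3 had no count in either library and 9 were kept, with a median log2 ratio of 0.18. Of 20 genes of the apoptosome and the death receptor platform, 16 were kept, with a median of -0.03 that turned to 0.02 with total counts and 0.01 with upper quartile scaling. APAF1 was the only one at least 1.5-fold higher, against 13.8% of all genes kept. PEA15, a death effector domain protein, was the only one at least 1.5-fold lower, against 11.4%. PEA15 had 2108 counts with DMSO and 910 with L1, a log2 ratio of -0.999 (-1.11 to -0.89).

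Of 8 genes of the inhibitor of apoptosis family, 6 were kept, with a median of 0.13. BIRC3 (cIAP2) had 131 counts with DMSO and 252 with L1, a log2 ratio of 1.16 (0.85 to 1.47), and XIAP was the other gene at least 1.5-fold higher, while none was at least 1.5-fold lower (13.8% and 11.4% of all genes kept). The counting interval lay above 0 for 3 of the 6, against 26.8% of all genes kept. It lay below 0 for 1, against 28.6%, and the log2 ratio of that gene with the prior count was -0.54. The 9 antagonists and partners of these inhibitors had a median of 0.19. Of them 3 were at least 1.5-fold higher and 1 was at least 1.5-fold lower (13.8% and 11.4% of all genes kept). Their counting interval lay above 0 for 4 and below 0 for 2 (26.8% and 28.6%). DIABLO, the mitochondrial protein that displaces caspases from XIAP, had 819 counts with DMSO and 1380 with L1, a log2 ratio of 0.97 (0.84 to 1.09). The ubiquitin ligase scaffold CUL3 had a log2 ratio of 0.64 (0.57 to 0.70). Further members of that list past 1.5-fold had few counts, XAF1 with 5 in DMSO and 12 in L1 and SEPTIN4 with 36 and 19, and both their intervals included 0. HTRA2, another gene of that list, was lower, with 2575 counts with DMSO and 1657 with L1, a log2 ratio of -0.42 (-0.51 to -0.33). XAF1, SEPTIN4 and HTRA2 were named after their values were seen.

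PARP1, at -0.20, lay inside the range of its family. The 21 kept genes of 22 for the PARP family and poly(ADP-ribose) turnover had a median of -0.06 and lay between -0.33 and 0.40. None passed 1.5-fold, against 13.8% higher and 11.4% lower of all genes kept. The 22 caspase substrates and apoptotic nucleases had a median of -0.04, which turned to 0.01 with total counts. Of these genes, 2 were at least 1.5-fold higher and 1 was at least 1.5-fold lower, against the same shares of all genes kept. LMNA, which encodes lamin A and C, was higher (log2 ratio 0.87, from 0.81 to 0.93), as was GAS2 (0.70, from 0.21 to 1.19), a gene named after its values were seen, with 63 counts with DMSO and 88 with L1. VIM, which encodes vimentin, was lower (-0.75, from -0.81 to -0.69).

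**Figure D4:**
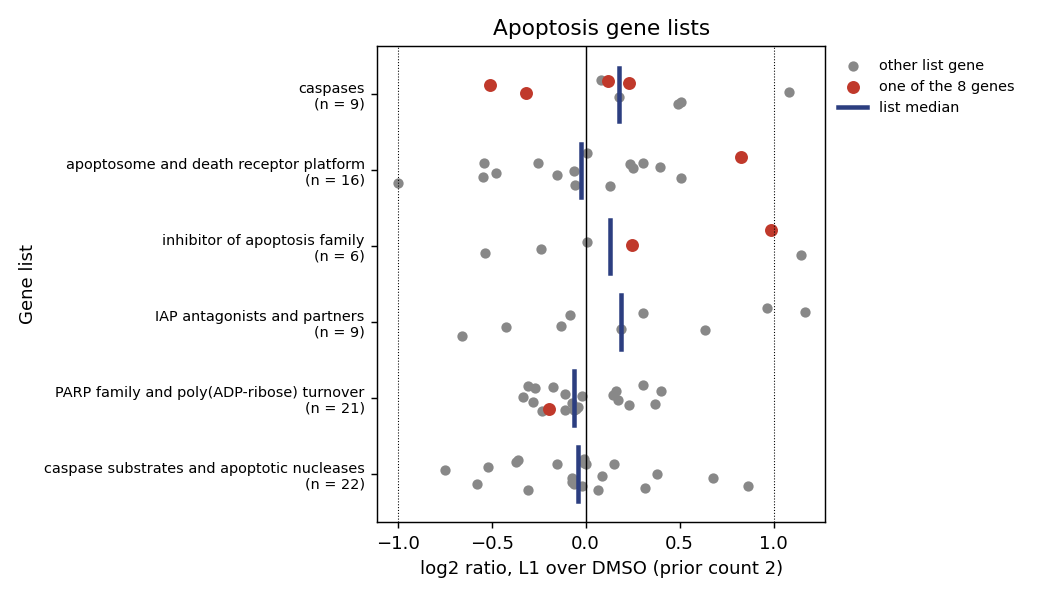
Log2 ratio of L1 over DMSO with a prior count of 2 for the kept genes of 6 apoptosis lists, with the 8 genes in red, other list genes in grey, list medians as blue bars and dotted lines at 2-fold. Genes lie on both sides of 0 in every list, and the PARP family is the narrowest, from -0.33 to 0.40.

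The sequence before 3 starts is given to set the 2 highest log2 ratios beside the lowest, a choice made after the values were seen. RefSeq (GRCh38.p14) lists a window of 250 bases before to 50 after a start for all 8 genes, and the window nearest the GENCODE start was used. The start of that window lay 1744 bases from the GENCODE start for CASP9 and 3 to 149 bases from it for the other genes. Printed are the bases before the first annotated start and outside exons of other genes, with GC boxes (GGGCGG) and the aryl hydrocarbon receptor core (GCGTG), searched on both strands, in capitals. The stretches are chrX:123859458-123859707 for XIAP, chr12:98645114-98645140 between IKBIP and APAF1, and chr7:143288101-143288214 for CASP2, all on the plus strand.
XIAP: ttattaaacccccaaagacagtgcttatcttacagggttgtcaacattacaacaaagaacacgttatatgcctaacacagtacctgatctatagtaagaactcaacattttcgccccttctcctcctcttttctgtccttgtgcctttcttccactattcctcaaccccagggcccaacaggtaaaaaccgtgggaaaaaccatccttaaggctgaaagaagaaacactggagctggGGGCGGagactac
APAF1: CACGCcccgtccgcggggtaggcgggc
CASP2: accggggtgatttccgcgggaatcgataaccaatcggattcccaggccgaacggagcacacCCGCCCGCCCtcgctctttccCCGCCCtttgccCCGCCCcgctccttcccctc

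The printed stretches differ in length, with 44.8% G or C over 250 bases for XIAP, 85.2% over 27 bases for APAF1 and 67.5% over 114 bases for CASP2. Over the full 250 bases before the RefSeq start, APAF1 had 73.6% and CASP2 71.2%, against 44.8% for XIAP. That of XIAP holds 1 GC box and no GCGTG, that of APAF1 holds 1 GCGTG and no GC box, and that of CASP2 holds 4 GC boxes and no GCGTG. Outside the printed bases, the window of APAF1 also holds 1 GC box and that of CASP2 holds 1 GCGTG. Over the whole windows, the GC box occurred in 8 of the 8 genes and in 45% of all 35116 windows. GCGTG occurred in 5 of the 8, all but CASP8, XIAP and BIRC2, and in 36.5% of all windows. The cAMP response element TGACGTCA occurred in BIRC2 alone, at its start site, and in 1.85% of all windows. No window of the 8 held TGACGTGG, bound by XBP1 and ATF6 (0.729% of windows), the ER stress response element ERSE (0.0769%), or the E2F motifs TTTCCCGC and TTTGGCGC (2.27% for either). APAF1 and XIAP thus shared no motif searched here other than the GC box, which CASP2 holds as well.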

How the data were processed

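HEL cells gave 1 RNA library for DMSO and 1 for L1. Per the submitters' processing notes, HISAT2 2.1.0 and StringTie were used and the build was hg38. The authors deposited unnormalized read counts for each Ensembl gene. A further table per library from the authors gives FPKM, for a subset of genes chosen by a rule not given in the sources used here. The counting program, annotation and strand setting are not given in the sources used here. Counts at gene level do not separate isoforms.

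TMM library sizes came from edgeR 4.0.16 and alternative size factors from DESeq2 1.42.0, in R 4.3.3. Intervals came from scipy 1.17.1 and tables from pandas 2.3.3, under Python 3.11.15. The calculation was tested on simulated data that held counting error only, so that test does not cover variation among cultures. A gene was kept where either library had 10 counts or more. From each of 6 gene lists, at most 2 genes per direction with at least 100 counts and past 1.5-fold were named, as were genes that overlap a member. An item that the rule names is not reported here. The genes and lists were chosen with earlier results of these data known. GENCODE release 29 holds 58254 of the gene identifiers. Protein sequences were not used here.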

Additional observations from a re-analysis of the deposited data

How the results depend on the processing

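No paired analysis was possible because DMSO and L1 had a single library apiece, and for the same reason no library could be left out. The number of genes past 2-fold among the 8 was 0, and 1 (XIAP) with total counts, with upper quartile scaling and with deposited FPKM ratios. The deposited FPKM ratios equalled the TMM ratios without a prior count for all 8 genes. XIAP passed 2-fold there only because no prior count was added. The number past 1.5-fold was 2, and 1 with log2(FPKM + 1), where XIAP fell to 0.33 because its FPKM lies below the added 1. Over the 4 scalings, log2 ratios ranged from 0.97 to 1.05 for XIAP, 0.80 to 0.88 for APAF1 and -0.54 to -0.46 for CASP2, and no scaling changed the sign of any of the 8. The median over the 8 genes lay between 0.02 and 0.22 over all alternatives, the lowest being that with overlapping genes on either strand summed. Of 88 values of single genes under alternatives, 5 left the counting interval. The only one of these with another sign was CASP6, at -0.27, with overlapping genes on either strand summed, which adds all counts of MCUB. Many of the 88 values could not move. No gene overlapped any of the 8 on the same strand, only PARP1 and XIAP had pseudogenes to add, and deposited FPKM ratios equalled the TMM ratios. The count of 5 of 88 is therefore not a measure of stability. Among the 6 list medians, those of the apoptosome and death receptor platform (-0.06 to 0.02) and of the caspase substrates (-0.07 to 0.01) changed sign under other scalings. With GENCODE 29 exon lengths, an alternative added after the data were seen, the FPKM ratio of PARP1 to BIRC2 went from 1.33 to 3.42 in DMSO and reversed from 0.975 to 2.51 in L1.

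The background counts, 1290 genes at least 2-fold higher and 876 lower, moved to 3544 and 1811 with no minimum count, 694 and 491 with 10 counts in both libraries, 387 and 361 with 100 counts in 1 library, 688 and 502 for protein-coding genes, and 547 and 350 with the whole interval past 2-fold. Few counts limit XIAP, CASP9 and CASP6 most.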
